A study of Homo sapiens with 6 samples.

Results

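Cholesterol and fatty acid synthesis genes were followed in a human glioma line and a pair of its derivatives. The list holds 30 genes in 3 roles: 16 enzymes of sterol synthesis, 7 genes of sterol control and transport, and 7 genes of fatty acid synthesis. Each gene was represented by the brightest, over the 6 arrays, of the probe sets that carry its symbol alone. In this way 27 of the 30 genes were measured, 14 of the sterol enzymes, 7 of the control and transport genes and 6 of the fatty acid genes, and all 27 lay among the 14513 genes tested. FDFT1 (squalene synthase) had no listed probe set, and the probe sets of CYP51A1 (lanosterol demethylase) and FADS1 (a desaturase) carry a second gene symbol, so these 3 were not analysed here.

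The highly invasive line U87MGR and the non-invasive line U87MGL were both raised from the parental line U87MG, an established human glioblastoma line. Per the labels, U87MG cells were injected into the left striatum of nude mice, and tumour cells were recovered from the brain and cultured again, in 4 rounds. Each group had 2 arrays of total RNA from cultured cells, and the titles name the derivative samples U87MGR2, U87MGR3, U87MGL2 and U87MGL3 without saying what the digit marks. All cells were kept in a serum-containing medium. The dissociated brains were cleared of red blood cells, and no removal of other mouse cells is described. All 3 groups go back to 1 line, so what follows describes these cells and not gliomas in general.

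Cells make cholesterol from acetyl-CoA through mevalonate, squalene and lanosterol. When membrane sterol is low, SCAP carries the SREBP proteins, encoded by SREBF1 and SREBF2, to the Golgi, where they are cut and released to switch on sterol and fatty acid genes. When sterol is plentiful, INSIG proteins hold SCAP back in the endoplasmic reticulum. Brain tissue makes its own cholesterol because lipoproteins of the blood do not cross into it, and glioma cells are known for taking up cholesterol from outside.

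The values are log2 signals, so a difference of 1 is a doubling, and a level is compared only with other levels of the same gene. Array medians lay between 5.29 and 5.35, and the median standard error (SE) of a log2 fold change was 0.189. The 42 probe sets for spiked-in control RNA parted the arrays into 3 sets that cross the groups: U87MGR replicate 1 with both U87MGL arrays, U87MGR replicate 2 with U87MG replicate 1, and U87MG replicate 2 alone. Distances were 0.882 to 1.41 within these sets and 5.56 to 8.83 between them. U87MG replicate 2 also had a signal of 12.52 on an 18S ribosomal RNA control probe set, against 6.00 to 7.98 on the other 5 arrays. Glioma line markers were present, with all 7 measured above the filter on low values. GFAP, the astrocyte filament protein, lay only a little above that filter (4.73), at 5.21 to 5.45, and the astrocyte water channel AQP4 lay below it. Of the markers of other brain cells, the microglial PTPRC, CX3CR1 and TYROBP, the endothelial CDH5, TIE1 and EMCN and the oligodendrocyte MOG and MAG lay below that filter. Above it lay 4 of 7 microglial, 5 of 8 endothelial, 4 of 7 oligodendrocyte and 7 of 8 neuronal markers. The summed microglial level was 8.54 to 8.56 in U87MGR, 8.54 to 8.62 in U87MGL and 8.52 to 8.58 in U87MG, and the summed neuronal level was 13.19 to 13.28, 13.12 to 13.25 and 12.57 to 12.93 in the same order of groups. Some identity markers were called by limma against U87MG, beside the lipid gene differences. The glioma marker CHI3L1 was lower in U87MGR (10.46 and 10.10) and U87MGL (9.83 and 8.58) than in U87MG (13.35 and 13.32), with log2 fold changes of -3.05 and -4.13. The glial glutamate transporter SLC1A3 was lower (-1.40 in U87MGR, -1.07 in U87MGL) and the transcription factor SOX9 higher (2.16 and 2.30). The neuronal MAP2 was lower in U87MGL (-1.74), and no marker was called between U87MGR and U87MGL. The summed glioma line level was 16.19 to 16.24 in U87MGR, 16.24 to 16.29 in U87MGL and 16.43 to 16.58 in U87MG, and the summed astrocyte level was 14.49 to 14.52, 14.51 to 14.53 and 14.40 to 14.53 in that order of groups. The part of these features in the results was not tested. In RNA of whole cultures, fewer cells that express a gene and less RNA per cell cannot be told apart.

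Most sterol genes had fold changes below 0 in both derivatives against the parental line, 18 of 21 in U87MGR and 16 of 21 in U87MGL. Of all 14513 genes tested 7347 and 7528 were below 0. The difference was larger than the replicate gap of either group compared for 10 of the 21 in U87MGR, all below 0. In U87MGL it was larger for 11, of which 10 were below 0. The share of all genes with such a difference was not computed. After adjustment over all genes 1 and 0 of the 21 were called. STARD4, a cytosolic carrier of cholesterol between membranes, was 2.48-fold lower in U87MGR than in U87MG, and ELOVL6, which lengthens long-chain fatty acids, was 2.02-fold higher in U87MGL than in U87MG. These were the only members of the 27 called by limma (adjusted p under 0.05 over all genes tested) in any of the 3 comparisons. The enzymes and regulators with the largest differences, SCD, INSIG1, DHCR7 and HMGCS1, lay lower on all 4 derivative arrays than on either U87MG array, yet none of them passed the test. The 4 derivative arrays lay below both U87MG arrays for 12 of the 27 members (16.2% of all genes tested) and above both for 2, ELOVL6 and ACLY (17.1%). The 12 were HMGCS1, MVK, MVD, IDI1, SQLE, TM7SF2, DHCR7, INSIG1, SREBF1, SREBF2, STARD4 and SCD.

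**Figure D1:**
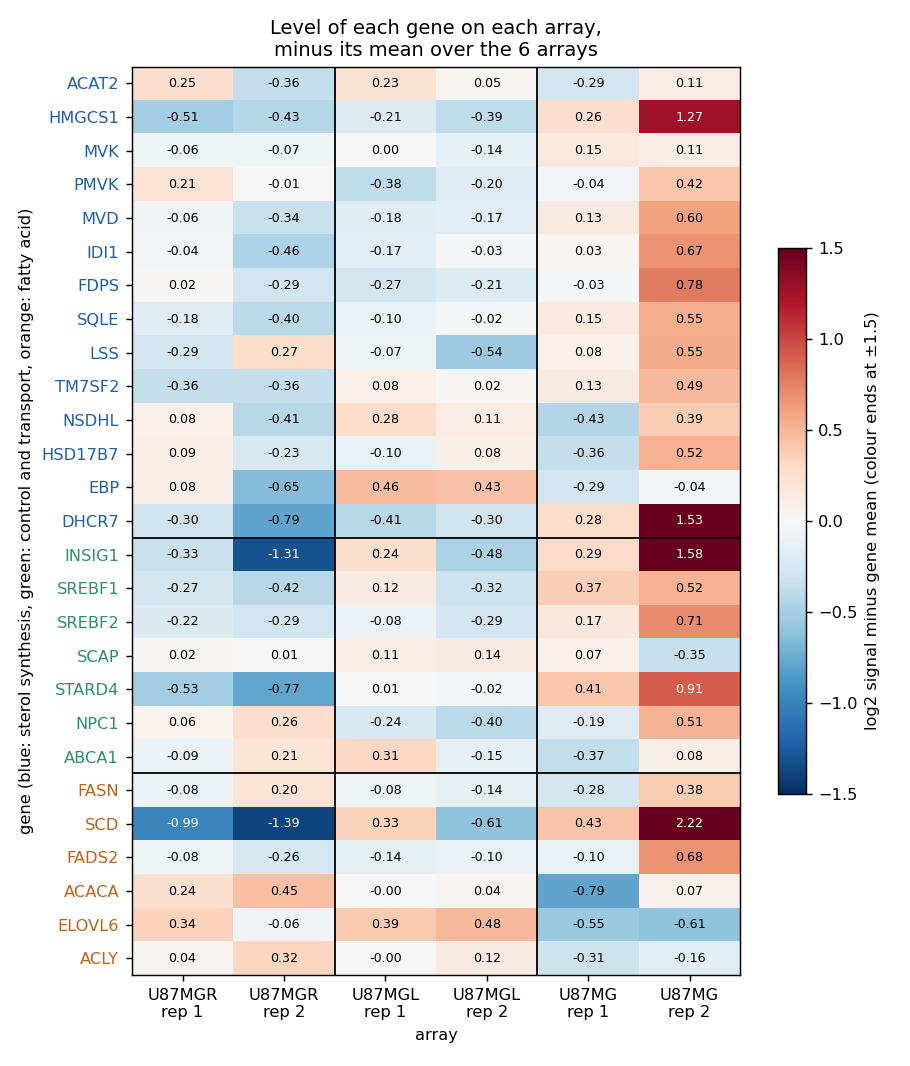
Log2 signal of each measured member on each array, minus the mean of that gene over the 6 arrays, with genes in rows by role and arrays in columns by group (U87MGR, U87MGL, U87MG). The column of U87MG replicate 2 holds the highest value of 19 of the 27 genes.

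The height of the parental group rested in large part on U87MG replicate 2. That array had the highest signal of the 6 for 19 of 27 members, whereas it was the highest for 24.6% of all genes tested. Its signal was above that of U87MG replicate 1 for 24 members (46.7% of all genes), by a median of 0.50 over the 27 members against -0.03 over all genes. The 3 exceptions were MVK, SCAP and ELOVL6. In U87MGR the lower array was replicate 2: it was above replicate 1 for 7 members (49.6% of all genes) and the lowest array of all for 14 (19.9% of all genes). The U87MGL arrays did not stand apart in this way, with replicate 2 above replicate 1 for 12 members (50.1% of all genes). U87MG replicate 2 is also the array that stood alone in the spike-in and 18S values, and what part that has in its lipid gene levels was not tested.

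After each gene was centred on its mean over the 6 arrays, the sterol synthesis genes averaged -0.08 and -0.32 on the U87MGR arrays, -0.06 and -0.09 on the U87MGL arrays, and -0.02 and 0.57 on the U87MG arrays. The control and transport genes averaged -0.20 and -0.33 in U87MGR, 0.07 and -0.22 in U87MGL, and 0.11 and 0.57 in U87MG. The fatty acid genes averaged -0.09 and -0.12 in U87MGR, 0.08 and -0.03 in U87MGL, and -0.27 and 0.43 in U87MG. In all 3 roles U87MG replicate 2 was the highest array. For the fatty acid genes U87MG replicate 1 was the lowest, so the parental arrays lay on both sides of the derivatives. The fatty acid mean on U87MG replicate 2 leaned on SCD, at 12.90 there against 9.28 to 11.11 on the other arrays. The median over the fatty acid genes was 0.23 on U87MG replicate 2 and -0.30 on replicate 1, still the highest and the lowest array.

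**Figure D2:**
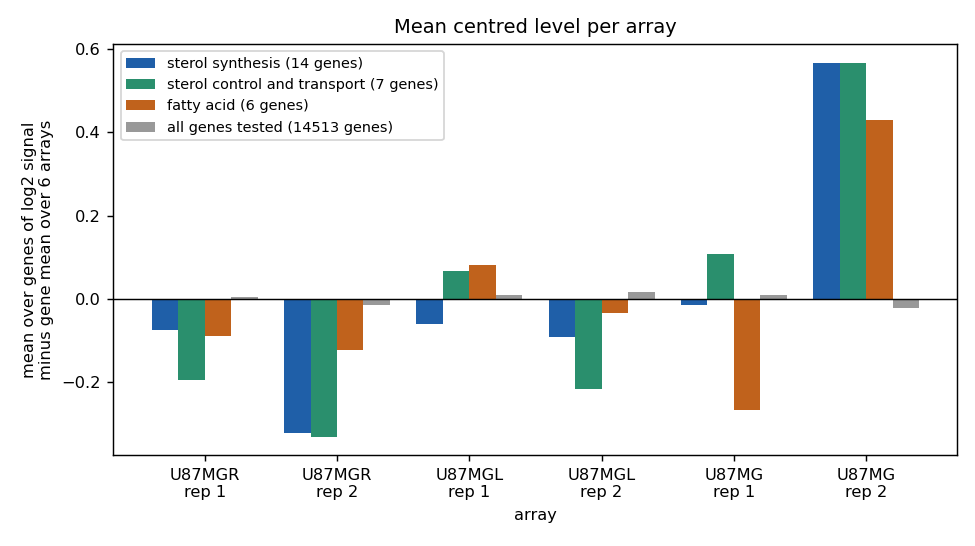
Mean centred log2 signal per array of the sterol synthesis, sterol control and transport, and fatty acid genes, beside all genes tested, with arrays on the horizontal axis by group. The 3 gene groups reach 0.57, 0.57 and 0.43 on U87MG replicate 2.

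Promoter sequences were matched by symbol to the RefSeq promoter table (GRCh38.p14) for 24 of the 27 measured members, and the 250 bases before the listed start were read on the gene's strand. The searched motifs were TCACNCCAC, a form of the sterol regulatory element at which SREBP proteins bind, CCAAT, the site of NF-Y, which is known to act together with SREBP, and CACGTG, the palindromic E-box, each on both strands. None of them is contained within another as spelled. TCACNCCAC was found in 1 of the 24 members, SREBF2, and in 1.09% of all 27305 genes in the table. CCAAT was found in 17 of 24 members (70.8%) and in 37.0% of all genes, and CACGTG in 3 of 24 (INSIG1, SCAP and ABCA1) and in 7.73% of all genes. A match describes the letters and is not a mapped binding site.

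The promoters of 6 members are shown because the results below turn on them or, for SREBF2, because it held the SREBP motif. They belong to STARD4 (chr5:111512536-111512785, minus strand), INSIG1 (chr7:155297628-155297877, plus strand), SREBF2 (chr22:41832855-41833104, plus strand), SCD (chr10:100346983-100347232, plus strand), HMGCS1 (chr5:43313413-43313662, minus strand, the first of 2 starts listed) and ELOVL6 (chr4:110198616-110198865, minus strand). Each runs 5′ to 3′ up to the base before the start, and capitals mark matches to the 3 motifs on either strand.
STARD4: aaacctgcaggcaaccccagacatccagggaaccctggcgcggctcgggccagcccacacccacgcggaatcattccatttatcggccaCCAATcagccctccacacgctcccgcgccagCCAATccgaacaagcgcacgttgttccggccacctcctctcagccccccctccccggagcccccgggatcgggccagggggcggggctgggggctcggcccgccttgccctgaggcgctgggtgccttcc
INSIG1: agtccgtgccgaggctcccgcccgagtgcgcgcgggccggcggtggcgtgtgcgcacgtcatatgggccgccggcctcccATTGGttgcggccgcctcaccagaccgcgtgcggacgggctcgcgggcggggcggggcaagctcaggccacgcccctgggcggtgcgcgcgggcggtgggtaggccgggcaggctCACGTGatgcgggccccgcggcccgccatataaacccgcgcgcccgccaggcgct
SREBF2: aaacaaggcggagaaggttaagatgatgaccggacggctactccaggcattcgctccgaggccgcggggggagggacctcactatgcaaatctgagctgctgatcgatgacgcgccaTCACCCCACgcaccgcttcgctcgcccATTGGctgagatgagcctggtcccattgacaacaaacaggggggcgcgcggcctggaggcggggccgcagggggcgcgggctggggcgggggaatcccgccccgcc
SCD: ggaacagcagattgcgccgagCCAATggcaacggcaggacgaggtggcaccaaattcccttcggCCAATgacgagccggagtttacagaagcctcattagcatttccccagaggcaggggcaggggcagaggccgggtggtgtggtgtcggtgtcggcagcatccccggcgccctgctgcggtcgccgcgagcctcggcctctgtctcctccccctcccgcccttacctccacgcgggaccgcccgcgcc
HMGCS1: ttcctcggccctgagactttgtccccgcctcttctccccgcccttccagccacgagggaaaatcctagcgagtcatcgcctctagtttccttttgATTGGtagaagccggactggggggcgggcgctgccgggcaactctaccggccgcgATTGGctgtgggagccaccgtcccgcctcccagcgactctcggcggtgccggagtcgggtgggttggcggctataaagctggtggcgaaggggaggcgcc
ELOVL6: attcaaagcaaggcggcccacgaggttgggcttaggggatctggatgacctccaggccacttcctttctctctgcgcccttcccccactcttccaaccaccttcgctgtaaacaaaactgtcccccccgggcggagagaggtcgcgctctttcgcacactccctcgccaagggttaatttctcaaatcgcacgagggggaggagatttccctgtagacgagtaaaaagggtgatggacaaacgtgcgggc

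STARD4, INSIG1, SCD and HMGCS1, whose 4 derivative arrays lay below both U87MG arrays, each hold CCAAT or its complement ATTGG in this window. In STARD4 CCAAT lies 161 to 157 and 130 to 126 bases before the start, and in SCD 229 to 225 and 186 to 182 bases before it. In INSIG1 ATTGG lies 170 to 166 bases before the start and CACGTG 55 to 50 bases before it. In HMGCS1 ATTGG lies 155 to 151 and 100 to 96 bases before the start. SREBF2 holds the SREBP motif as TCACCCCAC, 133 to 125 bases before the start, with ATTGG at 106 to 102. ELOVL6, whose 4 derivative arrays lay above both U87MG arrays, has none of the 3 motifs in these 250 bases, while ACLY, the other member with that pattern, holds CCAAT, as does ACACA. Of the 11 members with a promoter in the table whose derivative arrays all lay below U87MG, 10 hold CCAAT and SREBF1 does not. Of the 11 members with neither pattern 6 hold it. The genes printed were picked for their values, so no link between motif and direction is drawn from them.

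U87MGR against U87MG asked how the invasive line differs from the line it came from. Of the 27 members limma called 0 higher (1.86% of all genes tested) and 1 lower, STARD4 (1.44% of all genes). At an unadjusted p under 0.05, 3 members were higher (11% of all genes) and 11 lower (9.78% of all genes). Both U87MGR arrays lay above both U87MG arrays for 3 members (24.2% of all genes) and below both for 12 (24.2% of all genes). The median log2 fold change over the members was -0.32, with 20 of 27 below 0, beside -0.01 over all genes tested. By role the medians were -0.41 for the sterol synthesis genes, -0.70 for the control and transport genes and 0.21 for the fatty acid genes.

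The first committed steps of sterol synthesis build mevalonate. HMGCS1 encodes the HMG-CoA synthase of this stage, and its signals were 6.06 and 6.14 in U87MGR, against 6.83 and 7.84 in U87MG. Both U87MGR arrays were lower, and the parental arrays differed from each other by more than U87MGR differed from the nearer of them. The log2 fold change was -1.23 (SE 0.31, limma adjusted p = 0.0798), which did not pass. The mevalonate kinases and decarboxylase that follow differed less, with MVK at -0.20, PMVK at -0.09 and MVD at -0.56, and none of them passed. ACAT2, the thiolase that joins acetyl-CoA units ahead of this stage, was at 0.03.

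Isoprenoid and squalene steps came next, with IDI1 (isopentenyl isomerase) at -0.60, FDPS (farnesyl diphosphate synthase) at -0.51 and SQLE (squalene epoxidase) at -0.64. LSS, which closes squalene epoxide into lanosterol, was at -0.32. None of these passed the test. Among the enzymes that turn lanosterol into cholesterol, DHCR7, which makes the last reduction, had signals of 7.76 and 7.27 in U87MGR, against 8.34 and 9.60 in U87MG. Its groups did not overlap, but the spread within U87MG was wide, and the log2 fold change of -1.45 (SE 0.39, limma adjusted p = 0.0919) did not pass. TM7SF2, a sterol reductase, was at 6.02 on both U87MGR arrays, against 6.51 and 6.86 in U87MG, a log2 fold change of -0.66 (limma adjusted p = 0.0867). The remaining late enzymes NSDHL, HSD17B7 and EBP had fold changes of -0.14, -0.15 and -0.12, and their arrays overlapped. Of the 14 sterol synthesis genes 13 had a fold change below 0, with 6 lower at an unadjusted p under 0.05 and none called.

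The sterol control and transport genes followed, with the carrier STARD4 first. STARD4 had signals of 7.78 and 7.53 in U87MGR, against 8.71 and 9.21 in U87MG. Both U87MGR arrays lay well below both parental ones, with means of 7.65 ± 0.17 in U87MGR and 8.96 ± 0.35 in U87MG (SD, n = 2). The log2 fold change was -1.31 (SE 0.21, 95% interval -1.80 to -0.82, limma adjusted p = 0.0294). The call remained without U87MG replicate 1 (limma adjusted p = 0.0212) and was lost when any other array was left out: the adjusted p was 0.109 without U87MGR replicate 1, 0.183 without U87MGR replicate 2, 0.0554 without either U87MGL array and 0.0524 without U87MG replicate 2. It was also lost with 3 spike-in sets as a block, at -1.18 (limma adjusted p = 0.0548). With 2 sets as a block it was lost at -1.43. For this comparison that fit is the same as the one without U87MGR replicate 1, so it is not a further loss. Leaving out either U87MGL array gave the same values as fitting U87MGR and U87MG alone, with the fold change unmoved.

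INSIG1, the protein that retains SCAP, had signals of 9.88 and 8.90 in U87MGR, against 10.50 and 11.80 in U87MG. Its groups did not overlap, yet replicates differed by about 1 in both, and the log2 fold change of -1.76 (limma adjusted p = 0.105) did not pass. SREBF2, the SREBP gene tied mainly to sterol synthesis, had signals of 7.49 and 7.42 in U87MGR, against 7.88 and 8.42 in U87MG (log2 fold change -0.70, SE 0.21, limma adjusted p = 0.123). SREBF1, tied mainly to fatty acid synthesis, had 8.12 and 7.98 in U87MGR, against 8.76 and 8.92 in U87MG (log2 fold change -0.79, SE 0.19, limma adjusted p = 0.0771). For both SREBP genes the groups did not overlap and neither passed. SCAP, the escort protein, NPC1, which moves cholesterol out of lysosomes, and ABCA1, which exports it from the cell, had fold changes of 0.15, -0.0045 and 0.20, with overlapping arrays.

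**Figure D3:**
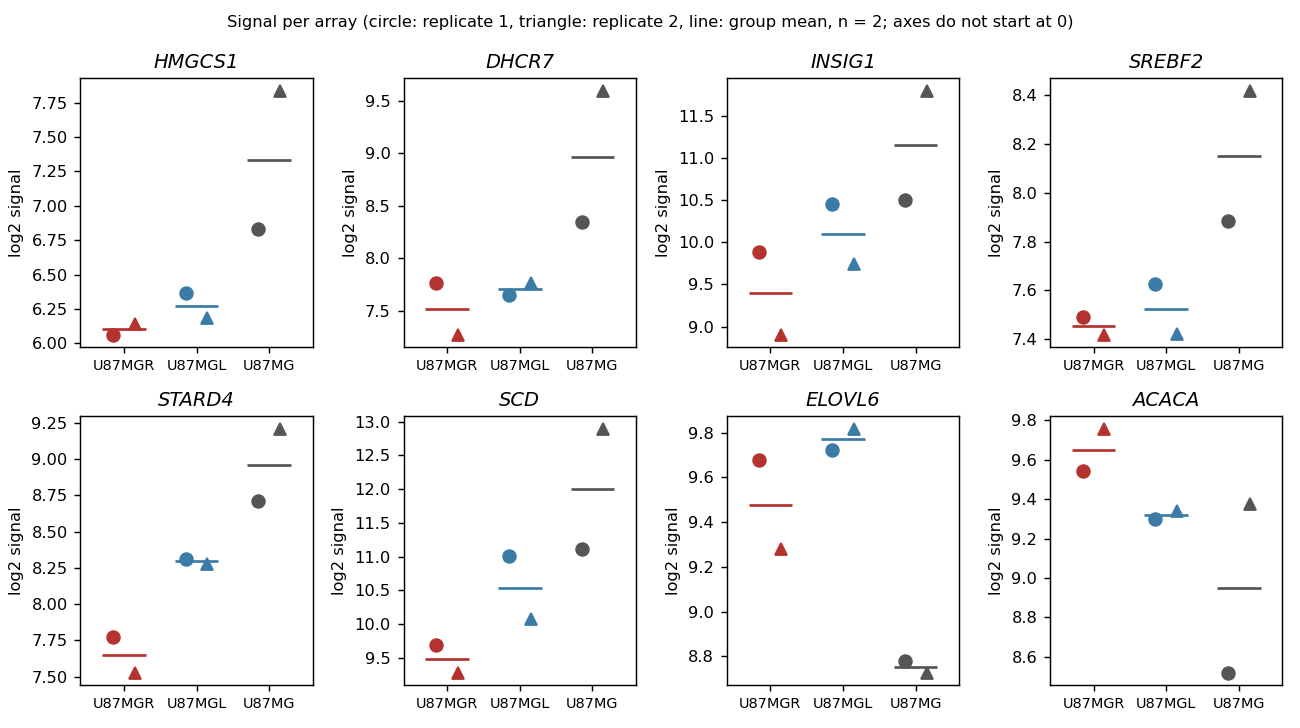
Log2 signal on each array (circle, replicate 1; triangle, replicate 2) with the group mean as a line, for 5 sterol genes and 3 fatty acid genes in U87MGR, U87MGL and U87MG. STARD4 in U87MGR lies at 7.78 and 7.53 against 8.71 and 9.21 in U87MG, and ELOVL6 in U87MGL at 9.72 and 9.82 against 8.78 and 8.73.

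The fatty acid genes had fold changes in both directions, 4 above 0 and 2 below. SCD, the desaturase that makes oleate, had signals of 9.68 and 9.28 in U87MGR, against 11.11 and 12.90 in U87MG. The groups lay apart by more than 1 on the log2 scale, and the difference of -2.52 (5.73-fold) was the lowest fold change of the 27 members. With U87MG at 12.00 ± 1.26 and U87MGR at 9.48 ± 0.28 (SD, n = 2), it did not pass (limma adjusted p = 0.0645).

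ELOVL6 had signals of 9.68 and 9.28 in U87MGR, against 8.78 and 8.73 in U87MG, a log2 fold change of 0.72 (SE 0.18, limma adjusted p = 0.0801). ACACA, acetyl-CoA carboxylase, which makes the malonyl-CoA for chain growth, had 9.54 and 9.76 in U87MGR, against 8.52 and 9.37 in U87MG (log2 fold change 0.70, SE 0.28, limma adjusted p = 0.21). ACLY, which makes cytosolic acetyl-CoA from citrate, was at 0.41. For these 3 genes both U87MGR arrays were above both U87MG arrays, and none passed. FASN, fatty acid synthase, was at 0.01, and FADS2, a desaturase of polyunsaturated fatty acids, at -0.46.

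**Figure D4:**
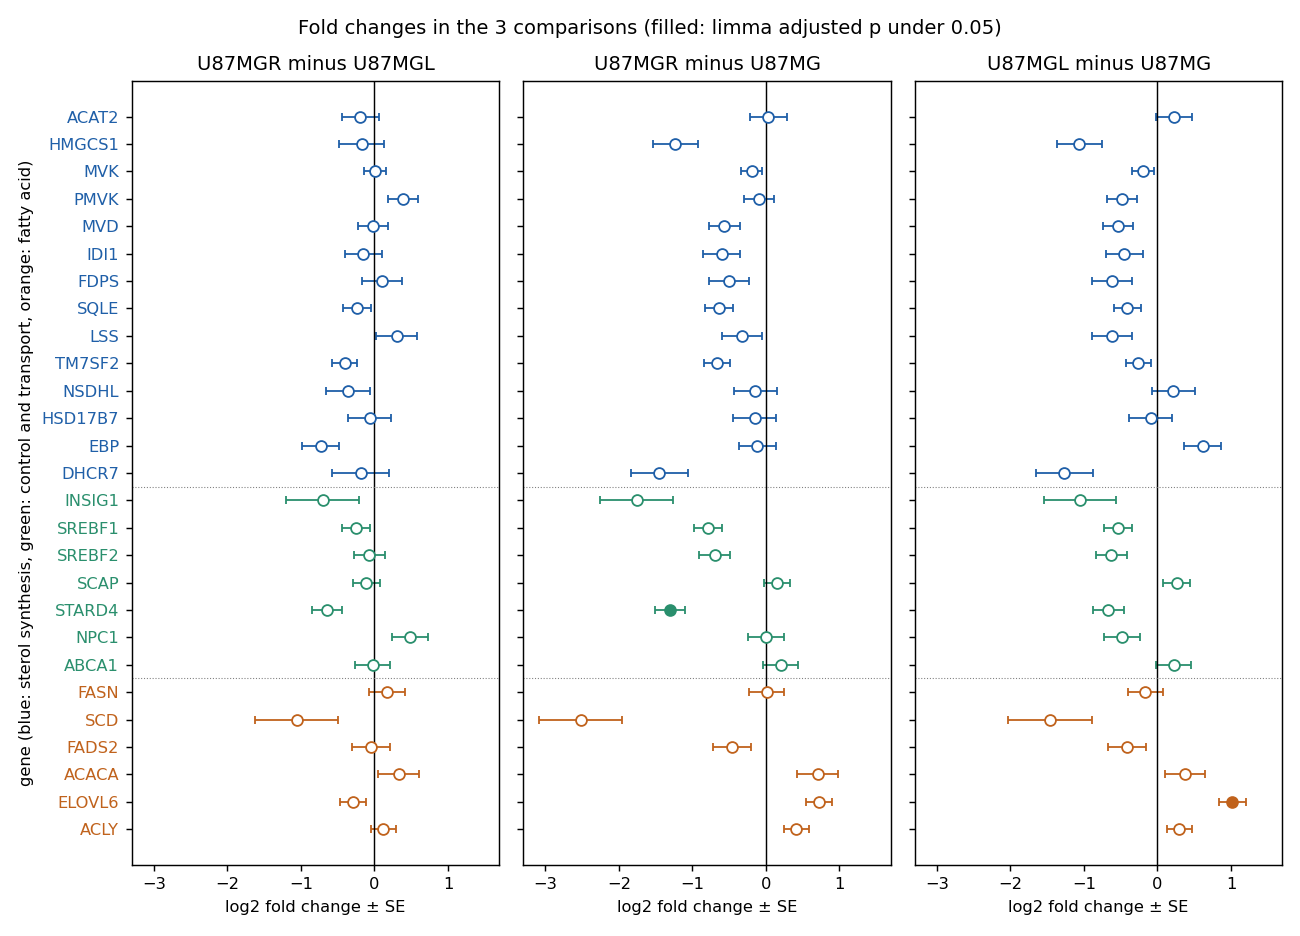
Log2 fold change ± SE of each measured member in the 3 comparisons, with a filled mark where limma called it at an adjusted p under 0.05. The filled marks are STARD4 in U87MGR against U87MG (-1.31) and ELOVL6 in U87MGL against U87MG (1.02).

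U87MGL against U87MG set the non-invasive line against the same parental arrays, so the values below share those arrays with the comparison above. Limma called 1 member higher, ELOVL6 (3.02% of all genes tested), and 0 lower (1.8% of all genes). At an unadjusted p under 0.05, 2 members were higher (13.2% of all genes) and 8 lower (10.1% of all genes). Both U87MGL arrays lay above both U87MG arrays for 4 members (28.1% of all genes) and below both for 17 (28.3% of all genes). The median over the members was -0.41, with 19 of 27 below 0, beside -0.02 over all genes. By role it was -0.43 for sterol synthesis, -0.54 for control and transport and 0.07 for fatty acid genes.

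ELOVL6 had signals of 9.72 and 9.82 in U87MGL, against 8.78 and 8.73 in U87MG. The replicates lay close together in both groups, at 9.77 ± 0.07 in U87MGL and 8.75 ± 0.04 in U87MG (SD, n = 2). The log2 fold change was 1.02 (SE 0.18, 95% interval 0.59 to 1.44, limma adjusted p = 0.03). The call remained without U87MG replicate 1 (limma adjusted p = 0.0398) and was lost when any other array was left out: the adjusted p was 0.0509 without either U87MGR array, 0.133 without U87MGL replicate 1, 0.209 without U87MGL replicate 2 and 0.0788 without U87MG replicate 2. Leaving out either U87MGR array gave the same values as fitting U87MGL and U87MG alone, with the fold change unmoved. The call was also lost with spike-in sets as a block. The log2 fold change was then 0.62 with 2 sets (limma adjusted p = 0.602) and 0.59 with 3 (limma adjusted p = 0.329). No spike-in set holds both U87MGL and U87MG. These 2 fold changes therefore carry the gap between the U87MGR arrays (9.68 and 9.28) and do not compare the groups within a set. The other 2 ELOVL6 probe sets differed by 0.73 and 1.05 in the same direction.

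Among the sterol genes HMGCS1 had signals of 6.36 and 6.18 in U87MGL, against 6.83 and 7.84 in U87MG (log2 fold change -1.06, SE 0.31, limma adjusted p = 0.101). DHCR7 had 7.65 and 7.76 in U87MGL, against 8.34 and 9.60 in U87MG (log2 fold change -1.26, SE 0.39, limma adjusted p = 0.115). Both genes lay lower on both U87MGL arrays, and neither passed. FDPS was at -0.61, LSS at -0.62, MVD at -0.54 and PMVK at -0.48. For these 4 genes too both U87MGL arrays lay below both U87MG arrays, and none passed.

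INSIG1 had signals of 10.46 and 9.74 in U87MGL, against 10.50 and 11.80 in U87MG, a log2 fold change of -1.05 (SE 0.49, limma adjusted p = 0.255). The higher U87MGL array lay just under the lower parental one. STARD4 had 8.31 and 8.28 in U87MGL, against 8.71 and 9.21 in U87MG (log2 fold change -0.67, SE 0.21, limma adjusted p = 0.117), and so lay between its U87MGR and U87MG levels without passing. SCD had 11.01 and 10.07 in U87MGL, against 11.11 and 12.90 in U87MG (log2 fold change -1.46, limma adjusted p = 0.185). EBP, a sterol isomerase, had a difference above 0, with 10.56 and 10.53 in U87MGL against 9.81 and 10.05 in U87MG (log2 fold change 0.61, limma adjusted p = 0.205). With 2 spike-in sets as a block the difference of EBP was -0.12, and with 3 it was 0.0017. Both values carry the gap between the U87MGR arrays (10.18 and 9.44), as no spike-in set holds both U87MGL and U87MG.

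U87MGR against U87MGL compared the invasive with the non-invasive line. Limma called none of the 27 members: 0 were higher (0.0413% of all genes tested) and 0 lower (0.117% of all genes). Before adjustment 0 were higher (3.91% of all genes) and 2 lower (4.94% of all genes), EBP and STARD4, at p under 0.05. Both U87MGR arrays lay above both U87MGL arrays for 3 members (23.3% of all genes) and below both for 9 (23.3% of all genes). The median was -0.11 over the members, beside 0.00 over all genes, and by role -0.16, -0.11 and 0.04 for sterol synthesis, control and transport, and fatty acid genes. A missing call does not show that the lines were alike: HMGCS1 differed by -0.17 with a 95% interval of -0.90 to 0.55, which holds sizeable differences.

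EBP had signals of 10.18 and 9.44 in U87MGR, against 10.56 and 10.53 in U87MGL. Both U87MGR arrays were lower, and the difference was -0.73 (SE 0.25, limma adjusted p = 0.453). STARD4 had 7.78 and 7.53 in U87MGR, against 8.31 and 8.28 in U87MGL, a difference of -0.64 (SE 0.21, limma adjusted p = 0.418). For this carrier the 3 groups followed one order without overlap, with U87MGR lowest and U87MG highest, although neither step next to U87MGL passed. HMGCS1, SQLE, TM7SF2 and SCD had the same order without overlap, and the share of all genes with it was not computed. SCD had 9.68 and 9.28 in U87MGR, against 11.01 and 10.07 in U87MGL, a difference of -1.06 (SE 0.57, limma adjusted p = 0.649).

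INSIG1 had 9.88 and 8.90 in U87MGR, against 10.46 and 9.74 in U87MGL, a difference of -0.70 (SE 0.49, limma adjusted p = 0.729), and its groups overlapped. TM7SF2 had 6.02 on both arrays of U87MGR, against 6.46 and 6.40 in U87MGL, a difference of -0.40 (SE 0.17, limma adjusted p = 0.574). ACACA had 9.54 and 9.76 in U87MGR, against 9.30 and 9.34 in U87MGL, a difference of 0.33. NPC1 differed by 0.48 (SE 0.25, limma adjusted p = 0.635) and PMVK by 0.39 (SE 0.20, limma adjusted p = 0.641). These last 3 genes were the ones whose U87MGR arrays both lay above the U87MGL arrays.

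The comparisons with U87MG depended on which parental array was used. Without U87MG replicate 1, limma called 8 members lower in U87MGR (HMGCS1, TM7SF2, DHCR7, INSIG1, SREBF2, STARD4, SCD and FADS2). In U87MGL it then called 8 lower (HMGCS1, FDPS, DHCR7, SREBF2, STARD4, NPC1, SCD and FADS2) and ELOVL6 higher. Without U87MG replicate 2 it called 0 lower and 1 higher in U87MGR, ACACA (log2 fold change 1.13, adjusted p = 0.0439), and none in U87MGL (3 higher and 2 lower before adjustment). The parental group is then 1 array, assumed to vary like the other groups. Calls over all genes also changed widely in number when 1 array was left out. No share of all genes called is given beside these counts, so they are not read as a change particular to the lipid genes. SCD differed between U87MGR and U87MG by -3.41 without replicate 1 and by -1.62 without replicate 2. INSIG1 differed by -2.40 and -1.11, DHCR7 by -2.08 and -0.82, and HMGCS1 by -1.73 and -0.73 in the same order. Each of these 4 genes had a value below 0 with either parental array. The median of the sterol synthesis genes in U87MGR was -0.70 without replicate 1 and -0.16 without replicate 2, and that of the fatty acid genes -0.022 and 0.42.

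**Figure D5:**
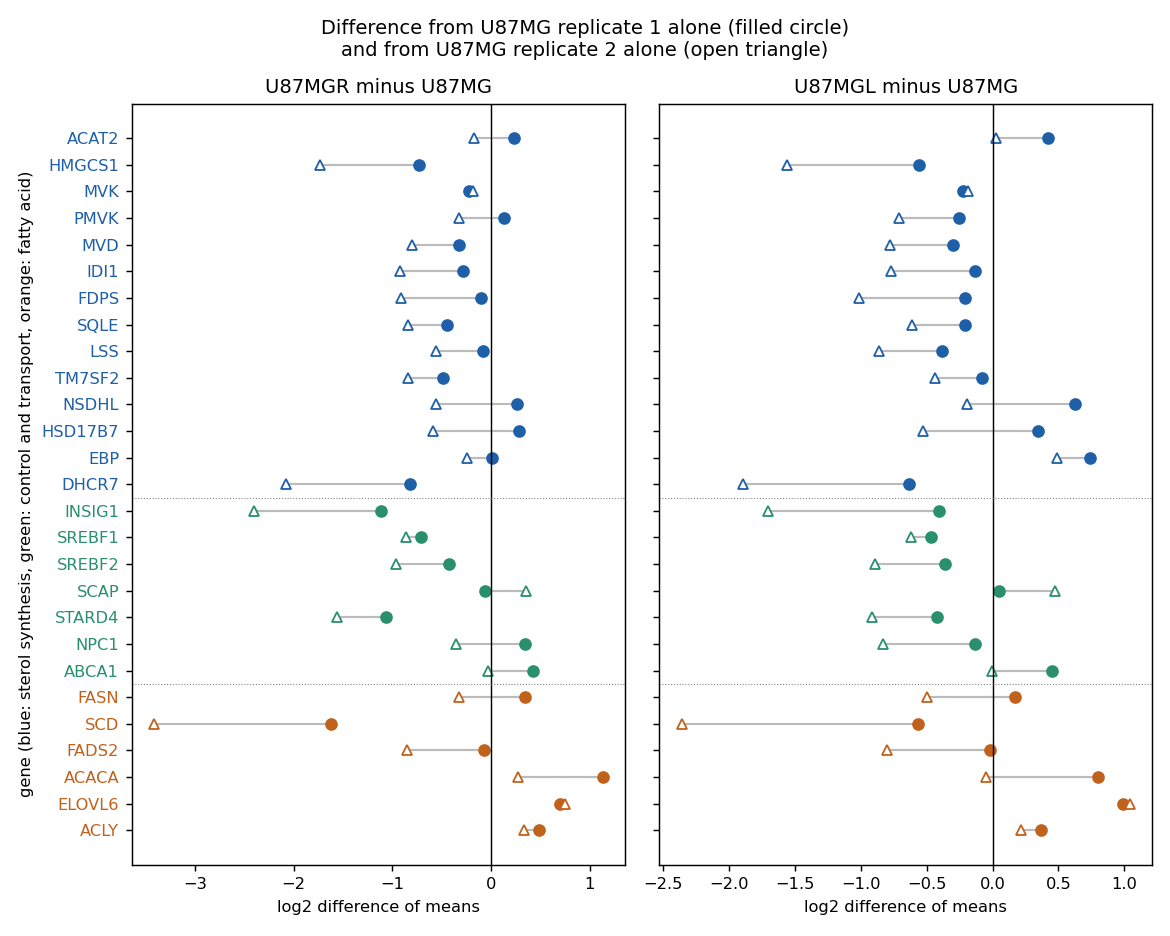
Log2 difference of the U87MGR mean (one panel) and the U87MGL mean (the other) from U87MG replicate 1 alone (filled circle) and from U87MG replicate 2 alone (open triangle), for each measured member. SCD in U87MGR lies at -1.62 against replicate 1 and at -3.41 against replicate 2.

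Within a spike-in set at least 1 side of each comparison is a single array. The fit with 3 spike-in sets as a block takes its fold changes from these same arrays. The only replicate gap it leaves is that between the U87MGL arrays. Its p-values combine that gap with a spread shared over all genes. For the gene tested they hold no spread within U87MGR or within U87MG. U87MGR replicate 2 minus U87MG replicate 1 was -1.18 for STARD4, -1.83 for SCD, -1.60 for INSIG1, -1.07 for DHCR7 and -0.69 for HMGCS1, with limma adjusted p = 0.0548, 0.116, 0.102, 0.0635 and 0.124 in that fit. In that pair ACACA differed by 1.24 (limma adjusted p = 0.0532), ACLY by 0.63 and ELOVL6 by 0.50, and 17 of the 27 members were below 0 with a median of -0.22. U87MGR replicate 1 minus the mean of both U87MGL arrays was -0.85 for SCD, -0.52 for STARD4 and -0.36 for EBP (limma adjusted p = 0.686, 0.481 and 0.63 in that fit), with a median of -0.02 over the members and 14 of 27 below 0. No spike-in set held both U87MGL and U87MG.

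Further probe sets of the same genes mostly pointed the same way. There were 34 of them above the filter in 19 members, and the sign matched that of the probe set used for 22 in U87MGR against U87MGL, 28 in U87MGR against U87MG and 30 in U87MGL against U87MG. All 4 SCD probe sets had differences below 0 in U87MGR against U87MG, at -2.52, -2.18, -3.16 and -3.00. Those of EBP disagreed for U87MGR against U87MGL, with 3 at -0.73, -0.79 and -0.71 and 1 at 0.09. For SQLE the other probe sets above the filter gave 0.14 and -1.22 in U87MGR against U87MG, beside -0.64 for the one used. For NPC1 they gave 0.46 and 0.73 in that comparison, beside -0.0045, so its value near 0 depends on the probe set. The other probe sets of LSS gave -1.36 and -0.72 there, beside -0.32. Those of ACLY gave 0.10 and -0.02 in U87MGR against U87MG, beside 0.41 for the one used. In U87MGL against U87MG they gave 0.03 and -0.08, beside 0.29, so the rise of ACLY rests on 1 probe set. With the mean of all probe sets of a gene, ACACA was called higher in U87MGR than in U87MG (0.73, limma adjusted p = 0.047).

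A wider list of 45 other sterol and fatty acid genes was looked at in the same fit, of which 39 were tested. In U87MGR against U87MG limma called 2 higher (1.86% of all genes tested) and 0 lower (1.44% of all genes). GPAM, which begins glycerolipid synthesis, had 9.04 and 8.69 in U87MGR against 7.82 and 6.97 in U87MG, and was 2.78-fold higher (log2 fold change 1.47, limma adjusted p = 0.0457). TMEM97, a sterol-responsive membrane protein that binds NPC1, had 9.61 and 9.49 in U87MGR against 8.58 and 8.68 in U87MG, and was 1.89-fold higher (limma adjusted p = 0.0481). For both genes the groups did not overlap.

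In U87MGL against U87MG 1 of the 39 was called higher (3.02% of all genes tested) and 1 lower (1.8% of all genes). TMEM97 rose, at 9.30 and 9.69 in U87MGL against the same parental arrays (1.82-fold, limma adjusted p = 0.0474). NPC2, the lysosomal partner of NPC1, was the 1 gene that fell, at 11.50 and 11.10 in U87MGL against 12.19 and 12.52 in U87MG (2.08-fold, limma adjusted p = 0.0355). In U87MGR against U87MGL none of the 39 was called (0.0413% of all genes tested higher and 0.117% lower). Before adjustment 2 were higher (3.91% of all genes) and 3 lower (4.94% of all genes). The differences of largest size there were INSIG2, a relative of INSIG1, at -0.99 (limma adjusted p = 0.42) and GPAM at 0.68 (limma adjusted p = 0.563). Each call on the wider list rested on several arrays: when any 1 array other than U87MG replicate 1 was left out, limma called 0 of the 39 in either comparison with U87MG, and it also called 0 with 2 or 3 spike-in sets as a block. Without U87MG replicate 1 it called GPAM higher and MSMO1 lower in U87MGR, so that TMEM97 was no longer called. In U87MGL it then called GPAM higher and NPC2, GGPS1, ACACB and ACSL1 lower, again without TMEM97. The medians of the wider list were 0.01 in U87MGR against U87MGL, -0.13 in U87MGR against U87MG and 0.00 in U87MGL against U87MG.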

How the data were processed

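Total RNA of 6 cultured samples was measured on single-colour oligonucleotide arrays. The authors deposited 1 log2 signal per probe set and array, for 54675 probe sets, and the scale was checked on the values (2.38 to 14.6). The sources used here do not say how the authors normalized them, and nothing further was applied. Of the probe sets 41097 carried 1 gene symbol, 1801 several and 11777 none, and 41043 matched RefSeq (GRCh38.p14) by gene number. The brightest 1-symbol probe set stood for each of 19775 genes, and the 14513 with a mean at or above the 40th percentile of all probe sets (4.73) were tested.

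One limma fit (version 3.58.1, R 4.3.3) of the 6 arrays had a mean per group, 3 residual and 4.05 prior degrees of freedom, and two-sided p-values adjusted by Benjamini-Hochberg over all genes tested. The titles call the samples of each group biological replicates, without saying how they were raised apart. These p-values measure only the spread between these samples, part of which may be technical. The fit was also run on simulated arrays with independent noise and shifts in U87MGR alone. They had no spike-in sets, so that run does not bear on those. With 2 arrays a group, precision is limited by their number.

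The members and lists were chosen with earlier results of these data known. Named members are the 2 of each role with the largest differences per comparison and those called; a few others, such as the SREBP genes, were chosen after their values were seen. Equal replicate numbers did not pair the samples: after group means were removed, deviations correlated at 0.01 (U87MGR, U87MGL), 0.11 (U87MGR, U87MG) and -0.09 (U87MGL, U87MG). Alternatives changed the filter, the probe set rule, normalization, variance moderation, the groups fitted, blocks and the arrays included.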

Additional observations from a re-analysis of the deposited data

How the results depend on the processing

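In limma 23 genes were called in U87MGR against U87MGL, 479 in U87MGR against U87MG, and 699 where U87MGL was set against U87MG. For the first, it called 40 with no filter, 10 with a stricter filter, 15 with the mean of all probe sets, 4 with 2 spike-in sets as a block and 0 with 3 (563 higher and 606 lower before adjustment). For the second it called 233 with the 2 groups alone, 11 with 2 sets and 231 with 3. For the third the counts were 215, 0 (649 and 587 unadjusted) and 0 (1111 and 1115 unadjusted). Leaving out 1 array gave 3 to 34, 1 to 877 and 37 to 1550 calls.

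STARD4 (U87MGR against U87MG), the 1 control and transport gene called, was not called with the 2 groups alone (adjusted p = 0.0554), with 2 spike-in sets (-1.43, adjusted p = 0.109) or with 3 (-1.18, adjusted p = 0.0548), a count of 0 each time. ELOVL6 (U87MGL against U87MG), the 1 fatty acid gene called, was not called in the same settings (1.02, 0.62 and 0.59, adjusted p = 0.0509, 0.602 and 0.329 in limma), again a count of 0. No spike-in set holds both U87MGL and U87MG, so the ELOVL6 values with spike-in blocks carry the gap between the U87MGR arrays. The cause of these losses was not tested. With the replicate block limma called both (adjusted p = 0.0429 and 0.0425), and both were called with no filter, the stricter filter, the mean of probe sets, quantile normalization and trended, robust moderation. Fatty acid calls in U87MGR against U87MG were 1 with the mean of probe sets, against 0. Leaving out 1 array gave 0 to 3 sterol synthesis calls and 0 to 3 control and transport calls in each comparison with U87MG, 0 to 2 and 0 to 3 fatty acid calls, and 0 in U87MGR against U87MGL.

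Other pathway calls in U87MGR against U87MG were 0 with no filter, the 2 groups alone and either spike-in block and 1 with the replicate block, against 2. In U87MGL against U87MG they were 4 with the mean of probe sets, 1 with quantile normalization and 0 with the 2 groups alone, the replicate block and either spike-in block, against 2. Leaving out 1 array gave 0 to 2 and 0 to 5.

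Medians that moved with 3 spike-in sets were those of control and transport genes (-0.46) and fatty acid genes (0.49) in U87MGR against U87MG, and of fatty acid genes in U87MGL against U87MG (0.52, and 0.35 with 2 sets). With 1 array left out, sterol synthesis medians were -0.29 to 0.04, -0.70 to -0.16 and -0.66 to -0.21 in the 3 comparisons, control and transport medians -0.26 to -0.03, -0.87 to -0.43 and -0.83 to -0.36, and fatty acid medians -0.01 to 0.06, -0.022 to 0.42 and -0.27 to 0.27. Fatty acid medians below 0 against U87MG came without U87MG replicate 1 and, for U87MGL, with the mean of probe sets (-0.057). The 2 arrays a group limit every comparison.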
